A study of Mus musculus with 12 samples.

Results

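Cytokines and chemokines are secreted proteins through which glial cells signal to each other, to neurons and to blood cells. The interleukin-1 family and TNF act through membrane receptors that switch on NF-kB, a family of transcription factors, and NF-kB in turn drives transcription of many chemokine genes. Chemokines bind G protein-coupled receptors and attract leukocytes, CC and CXC being classes named for the spacing of their first cysteines. In the brain, microglia, the resident macrophages, are the usual main source of IL-1, TNF and CCL3 and CCL4, and astrocytes can make CCL2 and CXCL10. The results below concern 10 mouse genes of this kind, chosen by a list of symbols and matched to the Ensembl identifiers of the count tables. They were Il1a, Il1b and Il18 (interleukin-1 family), Tnf, the CC chemokines Ccl2, Ccl12, Ccl3 and Ccl4, and the chemokines Cxcl10 and Cxcl16. All 10 were found among the 25442 genes held by both count tables (27866 and 30359 genes), and all 10 passed the filter on low counts in each comparison.

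Male C57Bl6/J mice received, at 2 months of age, a bilateral injection into the CA1 area of the hippocampus of an adeno-associated virus (AAV2/9). The vector carried either murine Adora2a, the gene of the adenosine A2A receptor (AAV-A2A, labelled AAV2/9_GfaABC1D-Bglob-A2AR-WPRE), or GFP (AAV-GFP, labelled AAV2/9-GfaABC1D-Bglob-GFP-WPRE). Both vectors used GfaABC1D, a short astrocyte promoter, so the controls also carry a virus and a foreign protein. At 4 months of age (2 months post-injection) both hippocampi were dissociated with enzymes at body temperature, and cells were sorted with magnetic beads against ACSA-2, an astrocyte surface antigen. The cells not retained were then sorted against CD11b, a surface protein of microglia and other myeloid cells. Each fraction was sequenced as 3 AAV-GFP and 3 AAV-A2A libraries, named here by vector and replicate number (GFP-303, GFP-306, GFP-307, A2A-309, A2A-310 and A2A-313 for ACSA-2, and GFP-2328, GFP-2329, GFP-2331, A2A-2343, A2A-2344 and A2A-2347 for CD11b). The 2 fractions are in separate tables with different replicate numbers, so that fraction and table cannot be told apart.

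The total count on genes was 33937067 to 49217553 per ACSA-2 library and 36098295 to 53206974 per CD11b library. Levels are given as CPM, counts scaled by TMM to a common library size within the fraction, unless CPM per kb is named. A gene was called at a Benjamini-Hochberg adjusted p under 0.05 from edgeR's quasi-likelihood test with an absolute log2 fold change (FC) over 0.32. Adora2a, the targeted gene, was at 23.0 to 25.1 CPM in the AAV-GFP and 656 to 945 CPM in the AAV-A2A ACSA-2 libraries (log2 FC 5.02, SE 0.21, edgeR adjusted p = 1.55e-05). The summed level of 12 astrocyte markers was 36555 to 58458 CPM in the ACSA-2 and 464 to 4966 CPM in the CD11b libraries, and that of 15 microglia markers was 336 to 609 and 10990 to 81440 CPM. GFP-2328, GFP-2329 and A2A-2347 stood apart from the other CD11b libraries before any comparison, with 62531 to 111918 CPM over 10 choroid plexus markers against 27.1 to 148 CPM in the other 3. Their microglia sums were also the lowest, at 10990, 21432 and 30208 CPM.

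The promoter, the stretch before the transcription start, was read for 3 short motifs, and 4 promoters that differ in their matches are printed. RefSeq sequence on GRCm38.p6 was available for 7 of the 10 genes (Il1a, Il1b, Tnf, Il18, Ccl3, Ccl12 and Cxcl10) and was read over the 250 bases before the start. The strand of the gene alone was searched for TATAAA (the TATA box). Both strands were searched for the core of the interferon-stimulated response element (ISRE, GAAA, any 2 bases and GAAA) and for the 10-letter kappaB consensus bound by NF-kB. Capitals mark the matches. Shown are Cxcl10 (chr5:92348890-92349139, minus strand), which held kappaB and ISRE matches, and Tnf (chr17:35202008-35202257, minus strand), which held a TATA match. Ccl3 (chr11:83649379-83649628, minus strand) and Il18 (chr9:50554450-50554699, plus strand), also shown, held no match to the 3 motifs on the strands searched.
Cxcl10: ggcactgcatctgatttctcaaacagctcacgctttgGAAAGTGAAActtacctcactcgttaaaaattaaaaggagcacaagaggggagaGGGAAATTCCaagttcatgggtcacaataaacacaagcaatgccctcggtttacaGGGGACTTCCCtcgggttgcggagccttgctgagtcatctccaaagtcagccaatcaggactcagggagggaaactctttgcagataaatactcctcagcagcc
Tnf: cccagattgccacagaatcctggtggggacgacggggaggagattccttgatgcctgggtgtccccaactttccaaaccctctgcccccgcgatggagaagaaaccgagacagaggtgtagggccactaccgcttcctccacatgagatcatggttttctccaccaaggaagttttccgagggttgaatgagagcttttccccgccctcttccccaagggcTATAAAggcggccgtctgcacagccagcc
Ccl3: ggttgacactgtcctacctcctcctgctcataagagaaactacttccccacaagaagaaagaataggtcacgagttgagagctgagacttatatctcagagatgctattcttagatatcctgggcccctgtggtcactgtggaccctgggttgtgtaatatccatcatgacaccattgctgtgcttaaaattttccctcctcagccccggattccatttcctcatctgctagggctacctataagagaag
Il18: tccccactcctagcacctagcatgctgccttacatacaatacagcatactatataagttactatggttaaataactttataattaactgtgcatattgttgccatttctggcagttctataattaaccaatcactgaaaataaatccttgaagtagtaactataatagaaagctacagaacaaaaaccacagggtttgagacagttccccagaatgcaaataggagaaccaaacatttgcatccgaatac

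The TATA match lay at almost the same place in the 4 genes that held one, from 32 to 27 bases before the start in Il1a, from 31 to 26 in Il1b and Ccl12, and from 29 to 24 in Tnf. Over all 32851 promoters of this length, 7.59% held TATAAA on the strand of the gene. On either strand, 7.25% held a kappaB match and 2.98% the ISRE core. Cxcl10 held 4 kappaB matches counted over both strands. Of these, 3 overlapped each other between 104 and 94 bases before the start, the same bases from 103 to 94 being counted once on each strand. The other lay from 159 to 150 bases before the start, and 1 ISRE core from 213 to 204 bases before it. A match is a run of letters and not a measured binding site, and the absence of one says only that these letters are not in this window.

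The first comparison asked in which fraction each gene is expressed, using the AAV-GFP controls. The CD11b cells held most of these transcripts. Of the 10 genes, 8 were called higher in CD11b than in ACSA-2 (14.4% of the 18602 tested genes were), 1, Il18, was called lower (12.3% of tested genes were), and Cxcl10 was not called. The median log2 FC of the 10 genes was 4.48, and of all tested genes 0.11. In 9 of the 10 genes the 3 CD11b and 3 ACSA-2 control libraries did not overlap, against 48.1% of tested genes. In bulk samples of this kind, fewer cells of a type and less RNA per cell cannot be told apart.

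**Figure D1:**
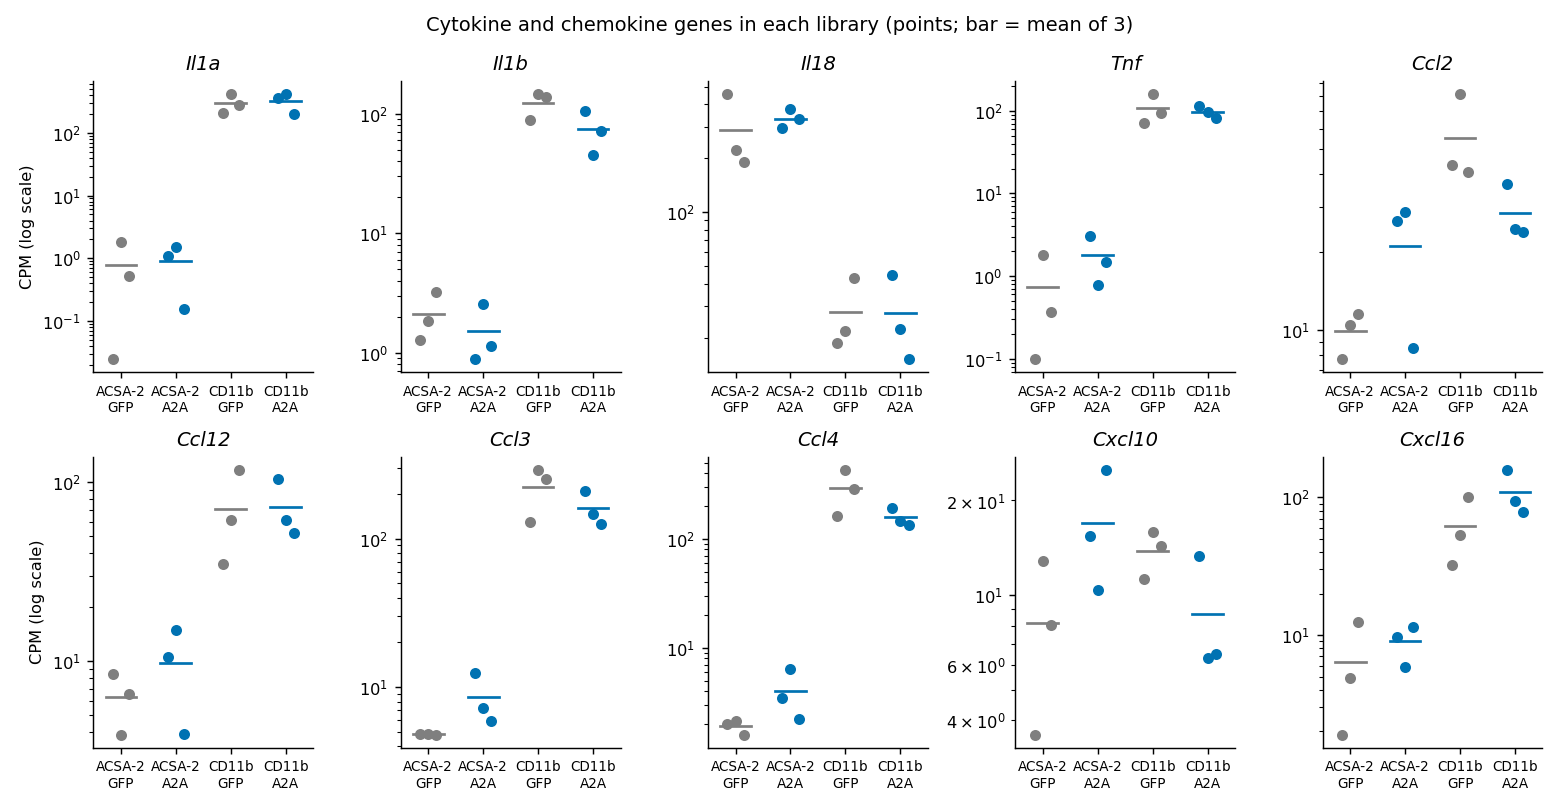
CPM (log axis, a separate range in each panel) of the 10 genes in each library, 3 points for each fraction and vector, with a bar at the mean. In the AAV-GFP controls the CD11b points lie above the ACSA-2 points for 8 genes and below them for Il18, and the Cxcl10 points overlap.

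Il1a encodes interleukin-1 alpha, a cytokine that cells also release when they are damaged, and it showed the largest fold of the 10. It was at 205, 409.7 and 279 CPM in GFP-2328, GFP-2329 and GFP-2331, and at 0.0250, 1.84 and 0.524 CPM in GFP-303, GFP-306 and GFP-307. The ACSA-2 values rest on 1, 62 and 20 counts and vary widely among themselves. The source of that spread was not tested. The difference was called (log2 FC 8.52, SE 1.24, edgeR adjusted p = 0.000633), and without GFP-306 it was 10.03. Il1b encodes interleukin-1 beta, which caspase-1 has to cleave before it acts. It was at 88.9, 146 and 137 CPM in the CD11b controls and at 1.28, 1.84 and 3.20 CPM in the ACSA-2 controls (log2 FC 5.84, SE 0.58, edgeR adjusted p = 5.30e-05). On the genome the pair lies 54597 bases apart on chromosome 2 (Il1a at chr2:129299610-129309972 and Il1b at chr2:129364570-129371139, GRCm38, both on the minus strand).

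Il18, a further member of the family that caspase-1 also matures, ran the other way and was an ACSA-2 transcript. Its level was 454, 221 and 190 CPM in the ACSA-2 controls and 18.6, 21.8 and 42.9 CPM in the CD11b controls, with no overlap. The log2 FC was -3.40, a level 10.6-fold lower in CD11b (SE 0.54, edgeR adjusted p = 0.00103). With a term for the 3 choroid plexus-rich libraries the log2 FC was -2.68. Without them it was -2.71, a value that rests on GFP-2331 as the single CD11b control, taken to vary like the other groups. Per kb of exon it made up 88.2% of the summed level of the 10 genes in the ACSA-2 controls and 2.16% in the CD11b controls.

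Tnf encodes TNF, the cytokine that NF-kB both answers to and induces. It was at 70.6, 158 and 94.6 CPM in the CD11b controls and at 0.100, 1.78 and 0.367 CPM in the ACSA-2 controls, the last from 4, 60 and 14 counts. The difference was called (log2 FC 7.14, SE 0.96, edgeR adjusted p = 0.000386), and without GFP-306 it was 8.79.

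Ccl3 and Ccl4 encode the chemokines MIP-1 alpha and MIP-1 beta, which attract leukocytes, and lie 13228 bases apart on chromosome 11 (Ccl3 at chr11:83647844-83649355 and Ccl4 at chr11:83662584-83664683). Ccl3 was at 129, 290.2 and 250.4 CPM in the CD11b controls and at 4.83, 4.86 and 4.80 CPM in the ACSA-2 controls (log2 FC 5.49, SE 0.45, edgeR adjusted p = 1.74e-05). Ccl4 was at 161, 428 and 285 CPM in the CD11b controls and at 2.00, 2.11 and 1.60 CPM in the ACSA-2 controls (log2 FC 7.22, SE 0.55, edgeR adjusted p = 1.10e-05). In the controls the ratio of the pair differed between fractions without overlap, a description of values seen before it was computed. Per kb of exon Ccl3 was 1.99 to 2.58 times Ccl4 in the ACSA-2 controls and 0.584 to 0.758 times Ccl4 in the CD11b controls. With AAV-A2A the ratios came closer, at 0.987 to 3.09 in ACSA-2 and 0.820 to 0.931 in CD11b.

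Ccl2 and Ccl12 encode MCP-1 and MCP-5, ligands of CCR2 that attract monocytes, and lie 64391 bases apart on chromosome 11. Ccl2 was at 43.3, 81.6 and 40.9 CPM in the CD11b controls and at 7.73, 10.5 and 11.5 CPM in the ACSA-2 controls (log2 FC 2.43, SE 0.47, edgeR adjusted p = 0.00348). Over the alternative settings its log2 FC ran from 1.44 to 2.66. Ccl12 was at 35.0, 61.3 and 117 CPM against 8.46, 3.89 and 6.53 CPM (log2 FC 3.47, SE 0.62, edgeR adjusted p = 0.00207), and its log2 FC was 2.86 without GFP-2331.

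Cxcl16 encodes a membrane-bound chemokine, the ligand of CXCR6. Its level was 32.1, 52.9 and 101 CPM in the CD11b controls and 1.90, 4.86 and 12.4 CPM in the ACSA-2 controls (log2 FC 3.26, SE 0.68, edgeR adjusted p = 0.00495). Without GFP-307 the log2 FC was 4.25, and without GFP-2331 it was 2.66. Cxcl10, the interferon-induced ligand of CXCR3, was the exception among the 10. Its 11.2, 15.8 and 14.3 CPM in the CD11b controls and 3.60, 12.8 and 8.05 CPM in the ACSA-2 controls overlapped. The log2 FC was 0.72 with a 95% interval of -0.42 to 1.85 (SE 0.52, edgeR adjusted p = 0.327), and it was -0.11 when both vectors were averaged.

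**Figure D2:**
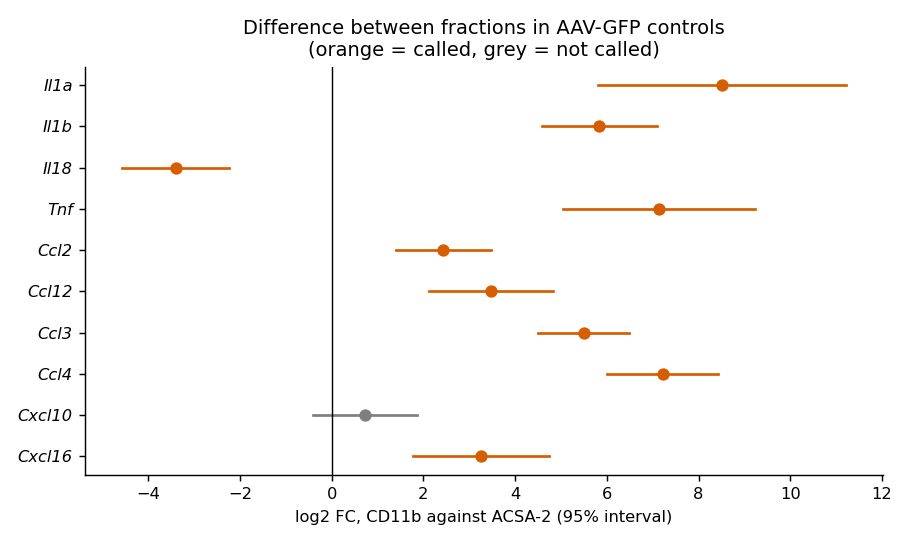
Log2 FC of the 10 genes, CD11b against ACSA-2 in the AAV-GFP controls (points), with 95% intervals (lines) from the fit of all 12 libraries. The points run from -3.40 for Il18 to 8.52 for Il1a, and the interval of Cxcl10 crosses 0.

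The ACSA-2 level of each gene was set beside that of microglia markers, since beads retain some other cells. In the AAV-GFP controls the ACSA-2 level of the 15 microglia markers was 0.372% (Selplg) to 25.9% (Sall1) of their CD11b level, with a median of 1.28%. Within that range were Il1b at 1.74%, Ccl3 at 2.22%, Tnf at 0.713%, Ccl4 at 0.671%, Ccl12 at 9.00%, Cxcl16 at 10.4% and Ccl2 at 18.5%. Il1a was below it at 0.274%, and Cxcl10 at 60.8% and Il18 at 1059% were above it. Sall1, which set the top of the range, was the marker not called between fractions (log2 FC 1.95, edgeR adjusted p = 0.0505). The marker with the next smallest difference was Aif1 (log2 FC 4.74). The log2 FC of Ccl12 (3.47), Cxcl16 (3.26) and Ccl2 (2.43) were smaller than that of Aif1. How much of each ACSA-2 level came from retained microglia was not tested. Immediate early genes, which dissociation at body temperature is known to induce, also differed between the fractions. Over 22 such genes the sum was 17529 to 29893 CPM in the CD11b controls and 1683 to 1857 CPM in the ACSA-2 controls. Of all tested genes 14.4% were called higher in CD11b, and of these 22 genes 20 were. Their part in the cytokine levels was not tested.

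Levels of different genes can be ordered only per length, so CPM was divided by the kb of exon in the GENCODE annotation. In the CD11b controls the order was Ccl4 (441 ± 203 CPM per kb, SD, n = 3), Ccl3 (291 ± 109.5), Il1a (151 ± 52.5), Ccl12 (132 ± 77.9), Tnf (65.8 ± 27.6), Il1b (65.0 ± 16.1), Ccl2 (48.6 ± 20.1), Il18 (26.9 ± 12.8), Cxcl16 (20.5 ± 11.7) and Cxcl10 (6.13 ± 1.05). Each of these overlapped its neighbour over the libraries except Cxcl16 and Cxcl10. Ccl4 made up 35.3% of the summed level per kb and Ccl3 23.3%. In the ACSA-2 controls Il18 stood first and alone at 279.7 ± 139.8 CPM per kb. It was followed by Ccl12 (11.7 ± 4.27), Ccl2 (8.69 ± 1.70), Ccl3 (6.31 ± 0.0446), Cxcl10 (3.63 ± 2.05), Ccl4 (2.88 ± 0.406), Cxcl16 (2.11 ± 1.79), Il1b (1.1 ± 0.518), Tnf (0.457 ± 0.551) and Il1a (0.403 ± 0.475). Apart from Il18, the neighbours that did not overlap there were Ccl2 and Ccl3, and Ccl3 and Cxcl10.

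**Figure D3:**
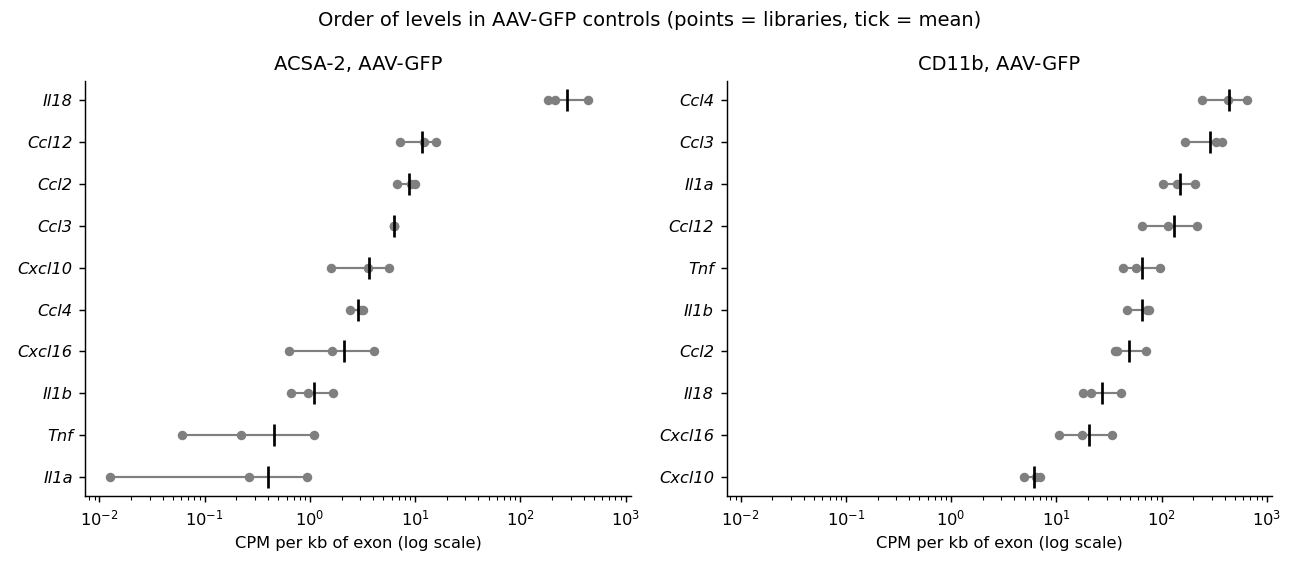
CPM per kb of exon (log axis) of the 10 genes in the AAV-GFP controls, ordered by mean in each fraction. Points are libraries, lines join the lowest and highest and ticks mark the mean. Il18 stands apart at 279.7 CPM per kb in ACSA-2 and is eighth in CD11b, where Ccl4 and Ccl3 lead.

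The second comparison asked what the receptor vector did to these genes in the ACSA-2 cells that it targets. None of the 10 was called, while 3.36% of the 16451 tested genes were (29 higher, 0.176%, and 524 lower, 3.19%). Point estimates were above 0 for 9 of the 10, with a median log2 FC of 0.73 against 0.02 over all tested genes, of which 51.6% were above 0. At an unadjusted p under 0.05 edgeR passed 1 of the 10, Ccl2, and 2141 of all genes. The AAV-A2A and AAV-GFP libraries did not overlap for 2 genes, Ccl3 and Ccl4, both higher with AAV-A2A, where 19.6% of tested genes did not overlap, 8.61% being higher and 10.9% lower. DESeq2 called 4.62% of genes and none of the 10.

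Ccl3 was at 12.4, 7.26 and 5.94 CPM in A2A-309, A2A-310 and A2A-313, above the 4.80 to 4.86 CPM of the controls, whose spread was small. The log2 FC was 0.82 (SE 0.41, edgeR adjusted p = 0.450), a 1.77-fold estimate, and without A2A-309 it was 0.45. Ccl4 was at 3.47, 6.34 and 2.24 CPM in the same libraries, against 1.60 to 2.11 CPM (log2 FC 1.08, SE 0.61, edgeR adjusted p = 0.528), and the log2 FC without A2A-310 was 0.58. For both, the lowest AAV-A2A library, A2A-313, lay close to the highest control. Ccl2 was at 26.3, 28.5 and 8.53 CPM and here A2A-313 fell among the controls, at 7.73 to 11.5 CPM (log2 FC 1.09, SE 0.44, edgeR adjusted p = 0.315). Ccl12 was at 10.6, 14.9 and 3.92 CPM with the same library lowest (log2 FC 0.64, SE 0.52, edgeR adjusted p = 0.720, and a log2 FC of 0.20 without A2A-310). A2A-313 also had the highest summed astrocyte markers of the 6 libraries, 58458 against 36555 to 41445 CPM, and the lowest microglia sum, 336 against 373 to 609 CPM. The part of these sums in the chemokine values was not tested.

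Cxcl10 differed from the CC chemokines in that A2A-313 was its highest library. It was at 15.5, 10.4 and 25.0 CPM with AAV-A2A against 3.60, 12.8 and 8.05 CPM in the controls, and the groups overlapped through A2A-310 (log2 FC 1.06, SE 0.49, edgeR adjusted p = 0.412). Without A2A-313 the log2 FC was 0.66. Cxcl16 was at 9.73, 5.84 and 11.4 CPM, within the 1.90 to 12.4 CPM of the controls (log2 FC 0.50, SE 0.62, edgeR adjusted p = 0.843). Its log2 FC was 1.40 without GFP-307 and 0.04 without GFP-303.

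Il18, the abundant gene of the group in this fraction, was at 293, 374 and 330 CPM with AAV-A2A. These values lay between the lowest and the highest control, 190 and 454 CPM, and the 95% interval of its log2 FC was -0.48 to 0.89 (log2 FC 0.20, edgeR adjusted p = 0.878). The estimate was -0.03 without GFP-307. Il1b was the gene of the 10 with an estimate below 0, at 0.887, 2.55 and 1.13 CPM against 1.28 to 3.20 CPM (log2 FC -0.46, 95% interval -2.23 to 1.30, edgeR adjusted p = 0.901). Il1a was at 1.08, 1.51 and 0.155 CPM (log2 FC 0.20, 95% interval -2.88 to 3.29). The sign of the Il1a estimate turned when GFP-303, GFP-307 or A2A-310 was left out, the lowest value being -0.38. Tnf was at 3.08, 0.780 and 1.48 CPM (log2 FC 1.25, 95% interval -1.31 to 3.81, edgeR adjusted p = 0.761), and its log2 FC was 2.91 without GFP-306 and 0.60 without A2A-309. Il1a and Tnf had 1 to 111 counts per library, and changes within these intervals were not detectable.

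The third comparison asked the same of the CD11b cells, which the astrocyte promoter of the vector does not target. None of the 10 was called, and neither was any of the 16949 tested genes (0%), of which 2704 passed an unadjusted p under 0.05. DESeq2 called 1.66% of genes and none of the 10. Estimates were below 0 for 7 of the 10, with a median log2 FC of -0.31 against -0.05 over all tested genes, of which 47.9% were above 0. Adora2a was at 3.96 to 8.07 CPM in the controls and 16.3 to 43.3 CPM with AAV-A2A in this fraction.

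**Figure D4:**
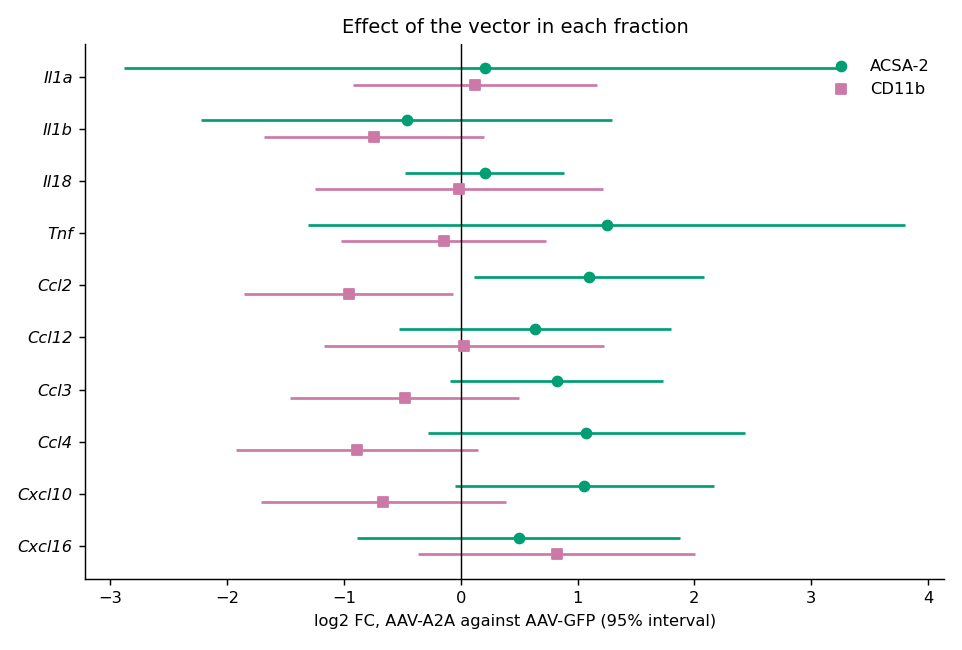
Log2 FC of the 10 genes, AAV-A2A against AAV-GFP, with 95% intervals (lines), in the ACSA-2 (circles) and CD11b (squares) fractions. Most circles lie right of 0, with a median of 0.73, most squares left of it, with a median of -0.31, and none of the 20 values was called.

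Ccl2 was the gene of the 10 whose CD11b groups did not overlap, where 23.4% of tested genes did not overlap and 10.9% were lower without overlap. It was at 43.3, 81.6 and 40.9 CPM in the controls and at 36.7, 24.5 and 23.9 CPM in A2A-2343, A2A-2344 and A2A-2347 (log2 FC -0.96, SE 0.38, edgeR adjusted p = 0.298). Its unadjusted p of 0.0388 was the lowest of the 10. Ccl4 was at 161, 428 and 285 CPM in the controls and at 193, 146 and 133 CPM with AAV-A2A, where GFP-2328 fell among the AAV-A2A libraries (log2 FC -0.89, SE 0.44, edgeR adjusted p = 0.364). Ccl3 was at 129, 290.2 and 250.4 CPM against 209, 146 and 126 CPM, again with GFP-2328 as the low control (log2 FC -0.48, SE 0.41, edgeR adjusted p = 0.593). Without GFP-2329 the log2 FC was -0.57 for Ccl2, -0.50 for Ccl4 and -0.24 for Ccl3. The Ccl3 to Ccl4 ratio per kb was 0.820 to 0.931 with AAV-A2A and 0.584 to 0.758 in the controls. That difference in ratio was seen after the values were known and was not tested.

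Il1b was at 105, 45.3 and 71.6 CPM with AAV-A2A and 88.9, 146 and 137 CPM in the controls (log2 FC -0.74, SE 0.39, edgeR adjusted p = 0.393). Its neighbour Il1a was not lower, at 362, 411 and 199 CPM against 205, 409.7 and 279 CPM (log2 FC 0.12, SE 0.44, edgeR adjusted p = 0.909). The ratio of Il1a to Il1b per kb was accordingly 2.69 to 8.78 with AAV-A2A and 1.96 to 2.72 in the controls, and these ranges overlapped. Tnf was at 113, 97.7 and 81.6 CPM, inside the 70.6 to 158 CPM of the controls (log2 FC -0.15, 95% interval -1.02 to 0.73). Il18 was at 44.7, 22.5 and 15.2 CPM against 18.6 to 42.9 CPM (log2 FC -0.02, 95% interval -1.25 to 1.21).

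Ccl12 and Cxcl16 did not share the direction of Ccl2. Ccl12 was at 104, 61.2 and 52.3 CPM against 35.0 to 117 CPM in the controls (log2 FC 0.03, 95% interval -1.17 to 1.23). Cxcl16 was at 158, 93.2 and 78.1 CPM against 32.1, 52.9 and 101 CPM (log2 FC 0.82, SE 0.50, edgeR adjusted p = 0.445), the highest estimate of the 10 in this fraction. Cxcl10 was at 13.4, 6.31 and 6.48 CPM against 11.2 to 15.8 CPM, overlapping through A2A-2343 alone (log2 FC -0.66, SE 0.44, edgeR adjusted p = 0.482).

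The make-up of the CD11b libraries also differed between the vectors. Choroid plexus markers were high in 2 of 3 controls and 1 of 3 AAV-A2A libraries, and the sum of 6 erythrocyte markers was 989 to 6140 CPM in the controls against 62.1 to 243 CPM with AAV-A2A. Summed markers of endothelial cells (895 to 2549 against 576 to 752 CPM), neurons (30.5 to 222 against 6.52 to 16.6 CPM) and ependymal cells (213 to 446 against 41.4 to 131 CPM) were likewise lower with AAV-A2A without overlap. Sums of monocytes and neutrophils (154 to 666 against 143 to 670 CPM) and border macrophages (161 to 675 against 495 to 1000 CPM) overlapped. The part of all these cells in the cytokine values was not tested. With the 3 choroid plexus-rich libraries left out, GFP-2331 remained against A2A-2343 and A2A-2344, the single control being assumed to vary like the others, and the log2 FC was -0.42 for Ccl2, -0.75 for Ccl4, -0.50 for Ccl3, -0.50 for Ccl12 and 0.16 for Tnf. A term for those libraries left Ccl2 at -0.90 and Ccl4 at -0.95 and turned Il1a to -0.08 and Ccl12 to -0.19. None of the 10 was called in either CD11b fit.

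The cytokine levels followed the microglia content of a library only loosely. The microglia sum ranged from 10990 CPM in GFP-2328 to 81440 CPM in A2A-2343, while the summed CPM of the 10 genes ranged from 787 in A2A-2347 to 1666 in GFP-2329. Per 100 CPM of microglia markers, Il1a was therefore at 1.87 and 1.91 CPM in GFP-2328 and GFP-2329 against 0.372 in GFP-2331 and 0.444, 0.632 and 0.660 in the AAV-A2A libraries. Ccl4 was at 1.46 and 2.00 in GFP-2328 and GFP-2329 against 0.380 in GFP-2331 and 0.237, 0.224 and 0.439 with AAV-A2A. On that scale every one of the 10 genes had a lower estimate with AAV-A2A, from -0.18 for Cxcl16 to -2.36 for Ccl2, while the median of all tested genes moved to -1.33, so that relative to this shift the estimates of Il1a, Il18, Ccl12 and Cxcl16 were higher. None of the 10 was called on it.

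**Figure D5:**
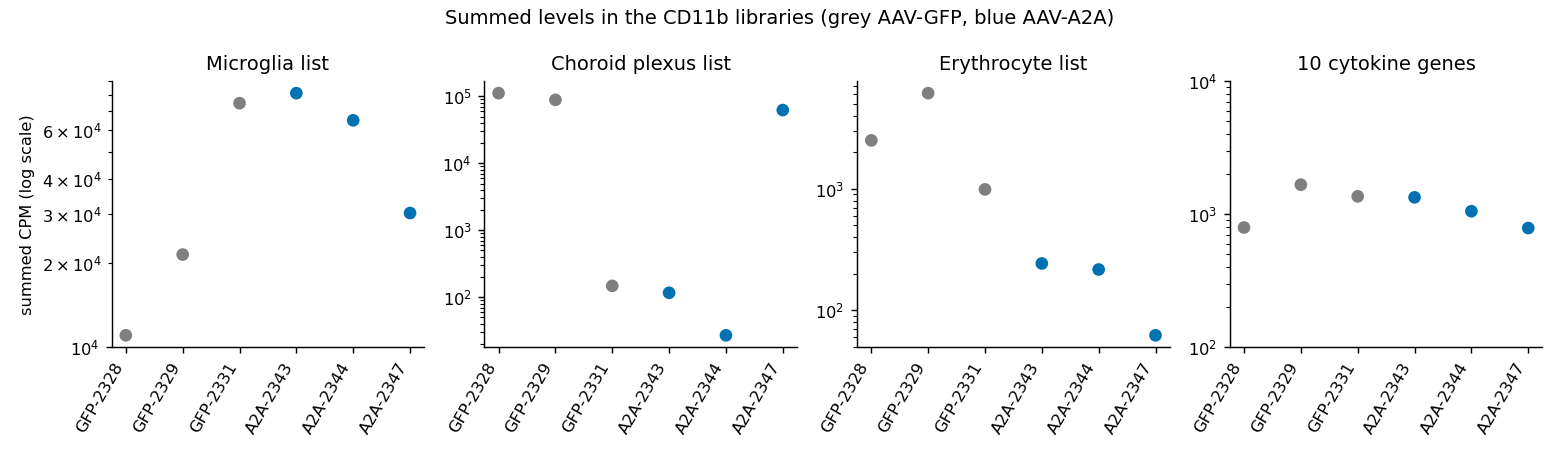
Summed CPM (log axis) in each CD11b library of the 15 microglia markers, the 10 choroid plexus markers, the 6 erythrocyte markers and the 10 cytokine and chemokine genes, grey for AAV-GFP and blue for AAV-A2A. The microglia sum runs from 10990 to 81440 CPM and the cytokine sum from 787 to 1666 CPM, and GFP-2328, GFP-2329 and A2A-2347 hold 62531 to 111918 CPM of choroid plexus markers.

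The difference between the vector effects in the 2 fractions was then tested itself, in the fit of all 12 libraries. None of the 10 was called, where 0.403% of the 18602 tested genes were (0.366% higher and 0.0376% lower), and an unadjusted p under 0.05 was found for 4 of the 10 and for 3645 of all tested genes. The estimates were below 0 for 9 of the 10, which means a lower effect of AAV-A2A in CD11b than in ACSA-2 cells, while 47.2% of all tested genes had estimates above 0. For Ccl2 the difference was -1.99 (95% interval -3.40 to -0.59, edgeR adjusted p = 0.133) and for Ccl4 -1.91 (95% interval -3.23 to -0.58, edgeR adjusted p = 0.128). With DESeq2, which called 6.91% of genes, these 2 genes passed. The log2 difference was then -2.05 for Ccl2 (adjusted p = 0.0361) and -1.97 for Ccl4 (adjusted p = 0.0385). Cxcl10 at -1.65, Tnf at -1.35 and Ccl3 at -1.24 had adjusted p of 0.243, 0.514 and 0.224 from edgeR. Il1a at -0.03, Il1b at -0.23, Il18 at -0.16 and Cxcl16 at 0.38 were near 0, with intervals that were at least as wide as 1 on either side.

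The receptors of these cytokines were read from a list of 15 genes (8 tested in ACSA-2 and 13 in CD11b). None was called for the vector in either fraction, where 3.36% of all tested genes were in ACSA-2 and 0% in CD11b. Between fractions 6 of 12 tested receptors were called higher in CD11b and none lower, where 14.4% and 12.3% of all tested genes were. Among the 6 were Il1r2, Il1rap, Tnfrsf1b, Il18rap and Ccr1. Tnfrsf1b, a TNF receptor, was at 54.3 to 351 CPM in the CD11b controls and 478 to 936 CPM with AAV-A2A, which did not overlap (log2 FC 1.92, SE 0.75, edgeR adjusted p = 0.297). Of all genes tested in CD11b, 23.4% did not overlap between the vectors, 12.6% being higher with AAV-A2A. The microglia sums, 10990 to 74946 CPM and 30208 to 81440 CPM, overlapped between the vectors, and their part in the receptor values was not tested. Tnfrsf1a, a TNF receptor and the gene of the list with the highest CPM in ACSA-2 (not corrected for length, here and for the lists that follow), was at 57.9 to 90.7 CPM in the controls and 47.3 to 72.4 CPM with AAV-A2A (log2 FC -0.34, SE 0.24, edgeR adjusted p = 0.663).

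Maturation of IL-1 beta and IL-18 involves the inflammasome and caspase-1, and release of TNF involves other proteases. Such genes were read from a list of 13 that also holds the inhibitor genes Il1rn and Il18bp. Between fractions 11 of 13 were called higher in CD11b, where 14.4% of all tested genes were. Casp1 was among the 11, at 24.5 to 75.0 CPM against 1.95 to 3.53 CPM in the controls (log2 FC 3.90, SE 0.60, edgeR adjusted p = 0.000881). Il18 transcript and the transcript of its protease were therefore highest in different fractions. For the vector none of the 10 genes tested in ACSA-2 and none of the 13 tested in CD11b was called (3.36% and 0% of all tested genes). Rhbdf2, a partner of the TNF-releasing protease ADAM17, was the 1 gene of this list called for the difference of vector effects. Of all tested genes 0.403% were called for that difference, a share that ran from 0% to 6.61% with 1 library left out. Without GFP-303, for example, no gene was called, Rhbdf2 included. Rhbdf2 was at 2.73 to 3.29 CPM in the ACSA-2 controls and 0.213 to 0.832 CPM with AAV-A2A, and at 19.1 to 34.2 and 41.6 to 87.8 CPM in CD11b. Adam10, the gene of highest CPM in ACSA-2 and a protease that cleaves Cxcl16 from the membrane, was at 22.7 to 25.8 and 15.6 to 22.3 CPM there (log2 FC -0.38, SE 0.25, edgeR adjusted p = 0.625). Gsdmd, the pore through which IL-1 beta leaves the cell, had the highest mean CPM of the list in the CD11b controls, at 60.3 to 266 CPM.

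All 22 genes of NF-kB and its adaptors were tested. For the vector none was called in either fraction (3.36% of all tested genes in ACSA-2 and 0% in CD11b). Median log2 FC was 0.18 in ACSA-2 and 0.73 in CD11b, against 0.02 and -0.05 over all tested genes. Between fractions 17 of the 22 were called higher in CD11b, where 14.4% of all tested genes were, and none lower. Vector estimates were above 0 for 17 of the 22 in ACSA-2, where 51.6% of all tested genes were. In CD11b they were above 0 for 20 of the 22, against 47.9% of all tested genes. The microglia markers moved likewise in CD11b, with 14 of 15 above 0 and a median log2 FC of 0.56. Their part in the NF-kB values was not tested. Nfkbia, the inhibitor that NF-kB itself induces, had the highest CPM of the NF-kB list. It was at 373 to 449 CPM in the ACSA-2 controls and 361 to 406 CPM with AAV-A2A (log2 FC -0.10, SE 0.16, edgeR adjusted p = 0.892). In CD11b it was at 1346 to 2566 CPM and 641 to 1759 CPM, an estimate below 0 unlike most of the list (log2 FC -0.78, SE 0.56, edgeR adjusted p = 0.520).

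Among 44 other cytokines and chemokines, 29 were tested in ACSA-2 and 33 in CD11b. Cx3cl1 in ACSA-2 was the 1 gene called for the vector, where 3.36% of all tested genes were in ACSA-2 and 0% in CD11b. It is a chemokine known mainly from neurons whose receptor CX3CR1 sits on microglia. It fell with AAV-A2A from 87.7 to 136 CPM to 35.0 to 47.5 CPM (log2 FC -1.48, SE 0.22, edgeR adjusted p = 0.00612). The summed neuronal markers of these libraries, 33.9 to 97.7 CPM in the controls and 15.7 to 50.6 CPM with AAV-A2A, overlapped. Cxcl14, of highest CPM in ACSA-2, was at 417 to 521 and 584 to 653 CPM, which did not overlap (log2 FC 0.40, SE 0.16, edgeR adjusted p = 0.329). Of all genes tested in ACSA-2, 19.6% did not overlap between the vectors, 8.61% being higher with AAV-A2A. Ccl6, of highest mean CPM in the CD11b controls, was at 33.3 to 227 and 63.8 to 183 CPM (log2 FC -0.09). Between fractions 9 of 35 were called higher in CD11b and 8 lower, where 14.4% and 12.3% of all tested genes were.

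Of the 22 immediate early genes, 2 were called for the vector in ACSA-2, both lower, where 3.19% of all tested genes were lower. Egr1, a transcription factor, went from 168 to 275 CPM to 47.3 to 104 CPM (log2 FC -1.61, SE 0.31, edgeR adjusted p = 0.0213), and Rhob, a small GTPase, from 168 to 238 CPM to 36.8 to 81.9 CPM (log2 FC -1.76, SE 0.29, edgeR adjusted p = 0.00927). Over the 22, estimates in ACSA-2 were above 0 for 14, against 51.6% of all tested genes. Their median log2 FC was 0.29, against 0.02 over all tested genes. None of the 22 was called in CD11b, where Fos was at 2770 to 4976 CPM in the controls and 3037 to 6239 CPM with AAV-A2A.

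The mean of the 10 genes over the CD11b libraries, each gene centred on the log2 scale, was highest in GFP-2329 (0.44), GFP-2331 (0.39) and A2A-2343 (0.36) and lowest in A2A-2347 (-0.48), GFP-2328 (-0.43) and A2A-2344 (-0.28). The order did not separate the vectors. Of 11139 other genes whose mean reached 5 CPM, the 5 most like it over the 6 libraries were Rgs1 (Pearson r = 0.985), Bcl2a1b (0.983), Prss36 (0.980), Enpp4 (0.978) and 4833411C07Rik (0.975). With 6 points that share libraries and depth, 113 genes passed r = 0.9, and the values are a description. Rgs1, a regulator of chemokine receptor signalling, had a mean of 149 CPM.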

How the data were processed

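RNA of ACSA-2 and CD11b sorted hippocampal cells was sequenced as 12 libraries (full-length cDNA amplified by PCR, transposase fragmentation, single-end reads, no molecular identifiers). The authors trimmed the reads with cutadapt 1.10, mapped them to mm10 (GRCm38) with STAR 2.5.3 and deposited raw counts of uniquely aligned, unambiguous reads per Ensembl gene from htseq-count (HTSeq 0.6.1p1), 1 table per fraction. Reads on overlapping genes were dropped. No strand setting is named, and in the annotation Il1a, Il1b, Il18, Ccl2, Cxcl10 and Cxcl16 overlap genes on the opposite strand, so their counts are uncertain. 25 empty unnamed columns of the CD11b table were not used.

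Each fraction was compared between vectors with edgeR 4.0.16 (TMM, filterByExpr, robust quasi-likelihood test) in R 4.3.3. The fractions, and the difference of vector effects, were compared in 1 fit of 12 libraries over genes in both tables. Adjusted p values are Benjamini-Hochberg values over all tested genes, and 95% intervals use the SE and degrees of freedom of that test. The study counts animals as its replicates for the astrocyte libraries. The labels do not say whether each CD11b library is a separate animal, so p values there measure the spread between libraries, which may be technical. Alternatives were DESeq2 1.42.0, limma-voom (limma 3.58.1), RLE scaling, filters of at least 1 count or of 10 counts in every library, no fold threshold, each library left out, a joint fit, and, chosen after seeing the data, 3 that treat the choroid plexus-rich CD11b libraries (over 1000 CPM of Ttr). Tests were tried on simulated data. GENCODE vM21 gave names, positions and exon lengths. The named genes are the 10 members, Adora2a, the genes of each list called for the vector, or else that of highest CPM, and the 5 of most similar pattern (on log2 CPM with a pseudocount of 2). Rhbdf2, Casp1, Tnfrsf1b, the receptors named between fractions and the microglia markers Selplg, Sall1 and Aif1 were chosen after their values were seen. The values of 1 receptor on the list are not reported here. The members and lists were chosen with earlier results of these data known.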

Additional observations from a re-analysis of the deposited data

Results flagged for a closer look

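For 2 genes the effect of the vector differed between the fractions by a test of the difference itself, with DESeq2, which called 6.91% of all genes, and not with edgeR, which called 0.403%. The log2 difference, CD11b minus ACSA-2, was -2.05 for Ccl2 (DESeq2 adjusted p = 0.0361) and -1.97 for Ccl4 (DESeq2 adjusted p = 0.0385). By edgeR it was -1.99 and -1.91, with adjusted p of 0.133 and 0.128, and over the alternatives the adjusted p ran from 0.0361 to 0.511 for Ccl2 and from 0.0385 to 0.362 for Ccl4. In the ACSA-2 fraction Ccl2 was higher than the highest control in 2 of 3 AAV-A2A libraries and Ccl4 in 3 of 3. In the CD11b fraction Ccl2 was lower than the lowest control in 3 of 3 and Ccl4 in 2 of 3. Whether the choroid plexus, erythrocyte and microglia content of the CD11b libraries, given above, has a part in this was not tested.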

How the results depend on the processing

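No paired analysis was possible because the groups share no replicate numbers. Of 704 log2 FC of the 10 genes under alternatives, 661 kept their direction and side of the threshold, 41 turned direction and 2 became significant. The 9 calls between fractions held under every alternative run, 1 of which left a single CD11b control, and 0 of the 10 genes were called for the vector in either fraction under all of them. For the difference of vector effects DESeq2 called 2 of the 10 (Ccl2 at -2.05 and Ccl4 at -1.97) where edgeR called 0, and the cause was not tested. No estimate that turned direction was significant. In CD11b, a term for the choroid plexus-rich libraries gave -0.077 for Il1a and -0.19 for Ccl12, leaving them out gave 0.16 for Tnf and -0.50 for Ccl12, and scaling to the microglia list gave -1.26 for Il1a, -0.94 for Ccl12 and -0.18 for Cxcl16. That scaling moved the median of all tested genes to -1.33, and relative to it none of these 3 turned. Keeping every gene with at least 1 count gave 0.016 for Il18, the fit of 12 libraries gave 0.019 for Il18, and 10 counts in every library gave -0.031 for Ccl12. Between fractions, the mean of both vectors gave -0.11 for Cxcl10. For the difference of vector effects, leaving out the choroid plexus-rich libraries gave 0.30 for Il1a and -0.12 for Cxcl16. Leaving out 1 library at a time gave, in ACSA-2, -0.38 to 1.73 for Il1a and -0.027 to 0.68 for Il18. In CD11b it gave -0.091 to 0.42 for Il1a, -0.37 to 0.24 for Tnf, -0.55 to 0.44 for Il18 and -0.32 to 0.59 for Ccl12. For the difference it gave -1.54 to 0.55 for Il1a, -0.77 to 0.37 for Il1b, -0.73 to 0.35 for Il18, -0.95 to 0.057 for Ccl12 and -0.65 to 0.98 for Cxcl16. Reads carry no molecular identifiers, so depth sets counting error only.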
